A study of Mus musculus with 6 samples.

Results

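Cardiolipin is the signature phospholipid of the mitochondrial inner membrane, where it holds respiratory complexes and carriers in place and shapes the cristae. It is built from phosphatidic acid: CDP-diacylglycerol synthases activate the lipid, Pgs1 joins it to glycerol phosphate, Ptpmt1 removes the phosphate, and cardiolipin synthase (Crls1) makes the final molecule, whose acyl chains are then exchanged, chiefly by tafazzin (Taz). Brown fat is rich in mitochondria because it burns fat to make heat, and cardiolipin synthesis is known to be needed for that function. The 8 genes described here are those of this route: Cds1, Cds2 and Tamm41 for CDP-diacylglycerol, Pgs1, Ptpmt1 and Crls1 for synthesis, and Taz and Lclat1 for remodelling. They were chosen by gene symbol in the platform annotation, which gave 20 probe sets of the 45037 on the array that are not controls, and 8 of 18193 named genes. The symbol Taz stands here for tafazzin and not for the transcriptional coactivator of the same nickname.

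RNA came from interscapular brown fat and epididymal white fat of male C57BL/6 mice aged 10 to 12 weeks, untreated and at ambient temperature, and the series was made to find genes selective for either tissue. Each tissue was represented by 3 arrays, described as biological replicates from 3 mice. Brown fat was taken only from the interscapular depot and white fat only from the epididymal depot, and fat type and body site cannot be told apart. No genotype or drug distinguishes the groups.

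Values below are quantile-normalised signals in linear units, and differences are brown minus white on the log2 scale. A gene is called higher in a tissue where the limma p-value, adjusted over all 19819 tested probe sets, is below 0.05, and each gene is represented by its brightest tested probe set. The arrays carried their labels' marker genes: Ucp1, the uncoupling protein of brown fat, had 12942 ± 267 in brown and was absent on all white arrays, at 62.5, 4.58 and 11.2, and leptin (Lep) was 54.2 ± 19.2 in brown against 1743 ± 16.5 in white (SD, n = 3). The array files were chosen by Ucp1 and Lep over a series table that runs the other way, so this is no independent check. All 8 macrophage markers tested were higher in white, with a summed signal of 2609 to 3092 in brown and 18083 to 18833 in white, and so were all 6 mesothelial markers, at 215 to 282 against 2105 to 2349, of which Msln, Upk3b, Krt19 and Krt8 were absent on every brown array. Of 8 skeletal muscle genes 3 were tested and 1 was called: Myl1 was higher in brown (1011 ± 149 against 306 ± 75.1) and carried more of the summed signal than any other, which was 1354 to 1833 in brown and 677 to 825 in white. Acta1 (81.6 ± 72.7 against 180 ± 38.0) and Casq1 were not called, and Ckm and Tnnt3 were absent on all 6 arrays. Myh4, Myh1 and Atp2a1 were present only on brown replicates 1 and 2 and were not tested. Atp2a1 read 134, 158 and 45.1 in brown and 53.6, 52.1 and 51.4 in white. Of 5 endothelial markers, 3 were higher in white and none in brown, with sums of 1621 to 1843 and 2340 to 2451. Of these 3, Pecam1 was absent on every brown array (214 ± 8.97 against 288 ± 4.03). Pecam1 and the 4 mesothelial markers absent in brown passed the detection filter only through the white arrays. Their calls are therefore no separate support for that direction. These tissues are mixtures, so fewer cells of a type and less RNA per cell cannot be told apart, and the part of these other cells in the results below was not tested. The median difference over all tested probe sets was -0.062 here, -0.53 with the signals as deposited and -0.51 with spike-in scaling, and the share of called probe sets that were higher in brown was 45.2%, 19.0% and 18.9%. The white arrays were brighter as deposited, with a median signal of 52.1 to 52.5 against 37.6 to 39.4. Present calls covered 45.2% to 45.8% of probe sets on white arrays and 35.6% to 37.5% on brown arrays. The 3'/5' signal ratio of actin was 2.24 on brown replicate 2 and 1.19 to 1.73 on the other arrays. Where the deposited or spike-in scaling ended the call or turned the direction of a gene named below, its value is given.

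Of the 8 genes, 6 were higher in brown, 1 (Cds2) was higher in white and 1 (Lclat1) was not called. Among all 10264 genes tested, 60% were called, 27.7% for brown and 32.2% for white. The median difference of the 8 was 0.69, against -0.043 over all genes tested. Of their 20 probe sets, 15 were tested, 7 were called for brown, 4 for white and 4 for neither, where 24.6%, 29.9% and together 54.5% of all tested probe sets were called. Brown and white arrays were fully apart for 13 of the 15, against 62.4% of all. The arrays of both tissues were fully separated for all 8 genes, as they were for 67.3% of all genes. The calls were not equally firm. Crls1, Ptpmt1 and Cds1 were called higher in brown under each of the 4 scalings tried, Taz under 3 of them, and Pgs1 and Tamm41 under 2. Deposited and spike-in scaling gave nearly equal differences, for Taz 0.30 and 0.32, and are not separate checks.

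**Figure D1:**
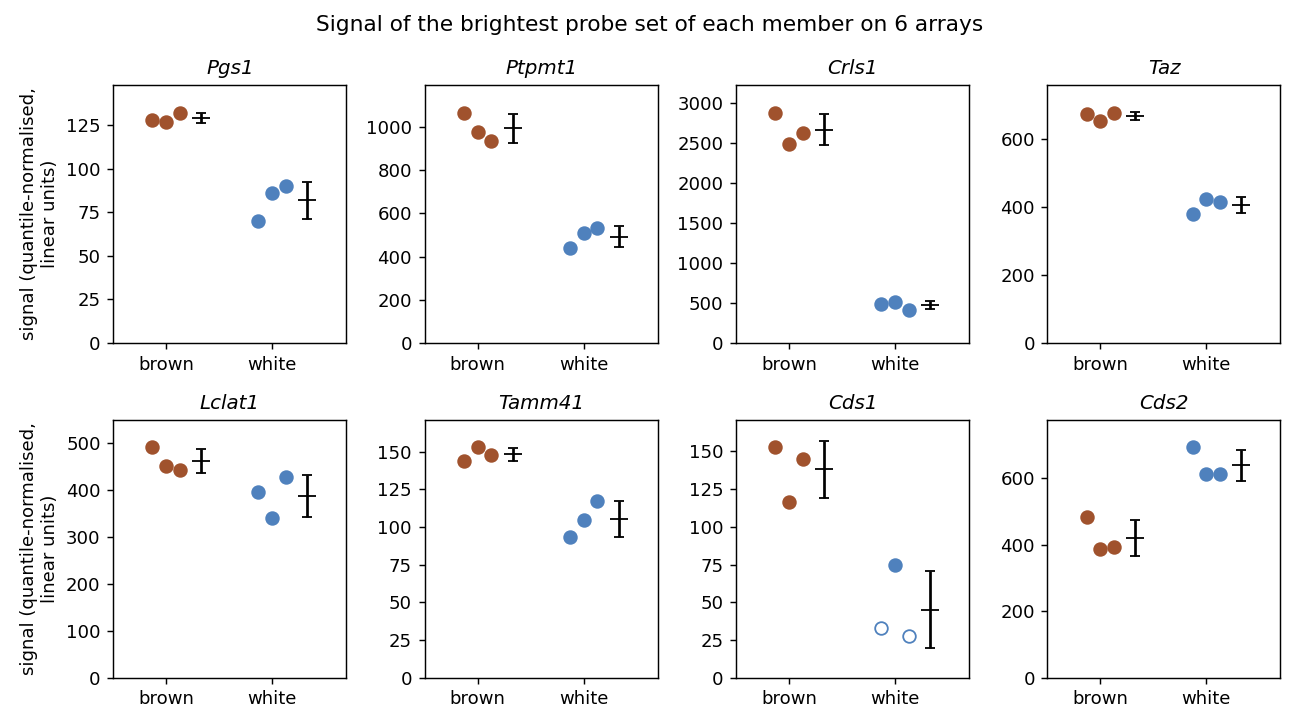
Quantile-normalised signal (vertical axis, linear units from 0, a scale of its own for each gene) of the brightest probe set of each of the 8 genes on the 3 brown and 3 white arrays. Filled points were called present and open points absent, and bars are the mean ± SD. Crls1 shows the widest gap, Cds2 is the gene with higher white arrays, and 2 of the 3 white points of Cds1 are absent calls.

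Crls1, the enzyme that condenses phosphatidylglycerol with CDP-diacylglycerol into cardiolipin, differed most in either direction. Its brighter probe set gave 2886, 2497 and 2634 on the brown arrays and 486, 511 and 413 on the white arrays, all called present. Every brown array was several times above every white array. The ratio was 5.70-fold towards brown, with a 95% interval of 4.93 to 6.59 (log2 difference 2.51 ± 0.09 SE, limma adjusted p = 1.51e-08). The other Crls1 probe set, of the kind that can cross-hybridise, gave 1711, 1816 and 1805 against 279, 285 and 327, a ratio of 6.00-fold (5.26 to 6.84). The probe sets therefore differed between tissues to a like degree, with overlapping intervals. Only 130 of the 10264 genes tested had a larger difference towards brown. With the deposited scaling the difference of Crls1 was 2.26.

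Ptpmt1, the mitochondrial phosphatase that turns phosphatidylglycerol phosphate into phosphatidylglycerol, acts just before Crls1 in the route and was also higher in brown. Its single probe set read 1066, 979 and 934 in brown and 438, 508 and 530 in white. The lowest brown array was above the highest white array by a wide margin. The ratio was 2.02-fold (1.75 to 2.34; log2 difference 1.02 ± 0.09, limma adjusted p = 9.96e-06), and the log2 difference was 0.63 with the deposited scaling.

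Crls1 and Ptpmt1 lie on the same chromosome of the mouse genome, as does Cds2, which was called higher in white. The 250 bases before the start sites of Crls1 and Ptpmt1 are shown because these are the 2 synthesis genes called higher in brown under every scaling. The sequences are from RefSeq on build GRCm38.p6, at chr2:132846416-132846665 on the plus strand for the first of the 2 Crls1 start sites and at chr2:90918051-90918300 on the minus strand for Ptpmt1. Capitals mark matches to 3 motifs searched on both strands, which are the estrogen-related receptor half-site AAGGTCA, the NRF-1 core TGCGCA and the GABP core CCGGAAG, all bound by regulators of mitochondrial genes.
Crls1: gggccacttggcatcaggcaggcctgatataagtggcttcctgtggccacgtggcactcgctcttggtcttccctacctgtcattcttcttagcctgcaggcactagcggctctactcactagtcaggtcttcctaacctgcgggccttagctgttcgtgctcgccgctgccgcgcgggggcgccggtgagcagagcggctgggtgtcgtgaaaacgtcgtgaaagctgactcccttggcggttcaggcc
Ptpmt1: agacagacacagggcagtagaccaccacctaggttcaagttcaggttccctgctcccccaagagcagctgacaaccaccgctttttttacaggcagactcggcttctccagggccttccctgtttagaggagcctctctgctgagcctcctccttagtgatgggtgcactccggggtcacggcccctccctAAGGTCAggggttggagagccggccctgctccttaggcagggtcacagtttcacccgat

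The Ptpmt1 window held 1 receptor half-site, which begins 59 bases before the start, and the Crls1 window held none of the 3 motifs. Windows were found for 7 of the 8 genes, 9 windows in all, and in the other windows no match was found either. Of 32851 windows of the same length in the RefSeq table, 4.08% held AAGGTCA, 6.43% TGCGCA and 6.91% CCGGAAG. The Crls1 window had 17 CpG sites and a GC content of 61.6%, the Ptpmt1 window 6 and 59.2%. A match describes these letters only and is not evidence of binding.

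Pgs1 makes phosphatidylglycerol phosphate, the step before Ptpmt1, and its probe sets disagreed. The brightest gave 128, 127 and 132 in brown and 69.7, 85.8 and 89.8 in white, a ratio of 1.59-fold towards brown (1.24 to 2.03; limma adjusted p = 0.0055). The 2 other tested probe sets ran the other way. One gave 90.0, 58.6 and 104 in brown, where it was absent on replicate 2, against 133, 128 and 113 in white (log2 difference -0.60, limma adjusted p = 0.0406). The other was absent on all brown arrays, at 93.6, 74.6 and 70.5, and present on all white arrays, at 112, 102 and 128 (-0.52, limma adjusted p = 0.0308). This probe set passed the detection filter only through the white arrays, where it is higher, so its p-value is no separate support for that direction. When any white array was left out it could not be tested. It is also of a kind that can read related transcripts. Both calls towards white were weak, though neither was lost with the deposited or spike-in scaling. The first was lost without brown replicate 2 (adjusted p = 0.0974) or white replicate 1 (0.104), 2 (0.0945) or 3 (0.0529), and also without the detection filter (0.0827) or the variance trend (0.0619). The second was lost without brown replicate 2 (0.0634) or 3 (0.0825), without the detection filter (0.0691) and with the replicate number as a block (0.0513). The fourth probe set of Pgs1 was present on only 2 arrays, both white, and was not tested. A direction for Pgs1 thus depends on the probe set: the mean over the 3 tested ones was -0.15 (adjusted p = 0.373), and the brightest lost its call with the deposited scaling (0.13, adjusted p = 0.514) and with spike-in scaling (0.14, adjusted p = 0.564). Without brown replicate 1, 2 or 3 another probe set became the brightest tested, with differences of -0.67, -0.36 and -0.44, and the first of these was called higher in white (adjusted p = 0.0494).

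**Figure D2:**
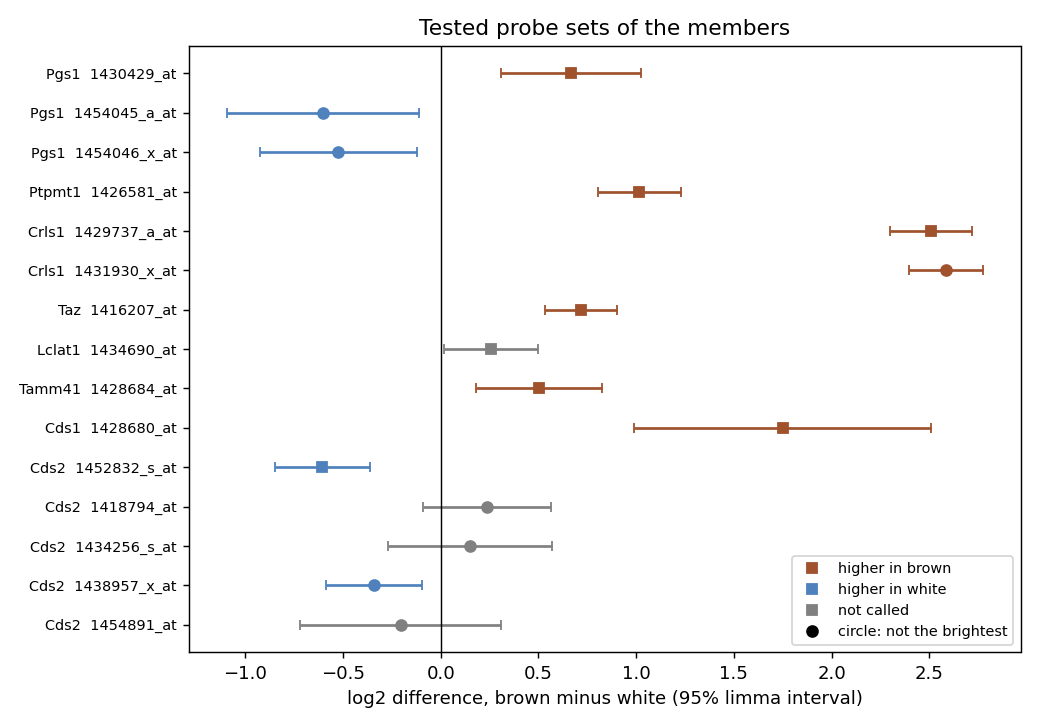
Log2 difference, brown minus white (horizontal axis), with the 95% limma interval for the 15 tested probe sets of the 8 genes, 1 row per probe set. Squares mark the brightest probe set of a gene and circles its others. Colours give the call. The Crls1 probe sets sit together at 2.51 and 2.58, while those of Pgs1 lie on both sides of 0 and those of Cds2 run from -0.61 to 0.24.

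CDP-diacylglycerol is used by Pgs1 and again by Crls1, and its synthases did not move together. Cds1, a synthase of the endoplasmic reticulum, read 153, 117 and 145 in brown, all present, and 32.9, 74.6 and 27.7 in white, where only replicate 2 was called present. All brown arrays were above all white arrays. The ratio was 3.36-fold towards brown, with a wide interval of 1.99 to 5.69 (log2 difference 1.75 ± 0.34, limma adjusted p = 0.00156). Its other probe set pointed the same way, at 94.7, 92.8 and 46.3 in brown, with calls of present, marginal and present, against 3.00, 8.95 and 23.4 in white, all absent, but was present on too few arrays to be tested. The difference of the tested probe set fell to 0.91 with 64 signal units added (limma adjusted p = 0.000351), which damps differences near background.

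Cds2, the other synthase of the endoplasmic reticulum, was the 1 gene called higher in white. Its brightest probe set gave 483, 388 and 393 in brown and 693, 612 and 612 in white, all present, a ratio of 1.52-fold towards white (log2 difference -0.61 ± 0.11, limma adjusted p = 0.00093), or -1.02 with the deposited scaling. A second probe set gave 193, 196 and 189 against 228, 262 and 244 and was also called higher in white (-0.34, limma adjusted p = 0.024). That call was lost without brown replicate 3 (adjusted p = 0.0554), white replicate 2 (0.0934) or white replicate 3 (0.0602). The 3 other tested probe sets were not called, at 0.24 (95% interval -0.09 to 0.56), 0.15 (-0.27 to 0.57) and -0.21 (-0.72 to 0.31), and the sixth was absent on all 6 arrays. Both probe sets with a call are of kinds that can read related transcripts, and without such probe sets Cds2 stood at 0.24 and was not called (adjusted p = 0.201). The mean over its 5 tested probe sets was -0.15 (adjusted p = 0.223).

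Tamm41 makes CDP-diacylglycerol inside mitochondria. Its detected probe set read 144, 153 and 148 in brown and 93.6, 105 and 117 in white, a ratio of 1.42-fold towards brown (1.13 to 1.77; limma adjusted p = 0.0141). The tissues did not overlap, but the difference is small. With the signals as deposited it was -0.048 (adjusted p = 0.788) and with spike-in scaling -0.034 (adjusted p = 0.886), so that its call rests on the normalisation. The second Tamm41 probe set was absent on all 6 arrays.

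Taz, the transacylase that exchanges acyl chains on cardiolipin and is mutated in Barth syndrome, was higher in brown. The arrays gave 672, 653 and 677 in brown and 380, 422 and 414 in white. Both groups were tight and well apart. The ratio was 1.65-fold (1.45 to 1.87; log2 difference 0.72 ± 0.08, limma adjusted p = 4.39e-05). The difference was 0.30 with the deposited scaling (adjusted p = 0.00922) and 0.32 with spike-in scaling, where the call was lost (adjusted p = 0.0629). The second Taz probe set was faint, present only on white replicates 2 and 3, and was not tested.

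Lclat1, an acyltransferase of the endoplasmic reticulum that also acylates lyso-cardiolipin, read 490, 451 and 441 in brown and 395, 339 and 427 in white. The lowest brown and the highest white array lay close together. The difference of 0.26 was not called (95% interval 0.02 to 0.50, limma adjusted p = 0.0674). It was called without white replicate 3 (0.34, adjusted p = 0.0389) and when every gene was tested as the mean of its probe sets (0.26, adjusted p = 0.049). With the deposited scaling it stood at -0.18 (adjusted p = 0.172) and with spike-in scaling at -0.17 (adjusted p = 0.39). Of the remodelling pair, then, Taz was called and Lclat1 was not. Within each array Taz minus Lclat1 was 0.46 higher in brown (0.54 ± 0.08 against 0.07 ± 0.21, SD, n = 3) and the tissues did not overlap.

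**Figure D3:**
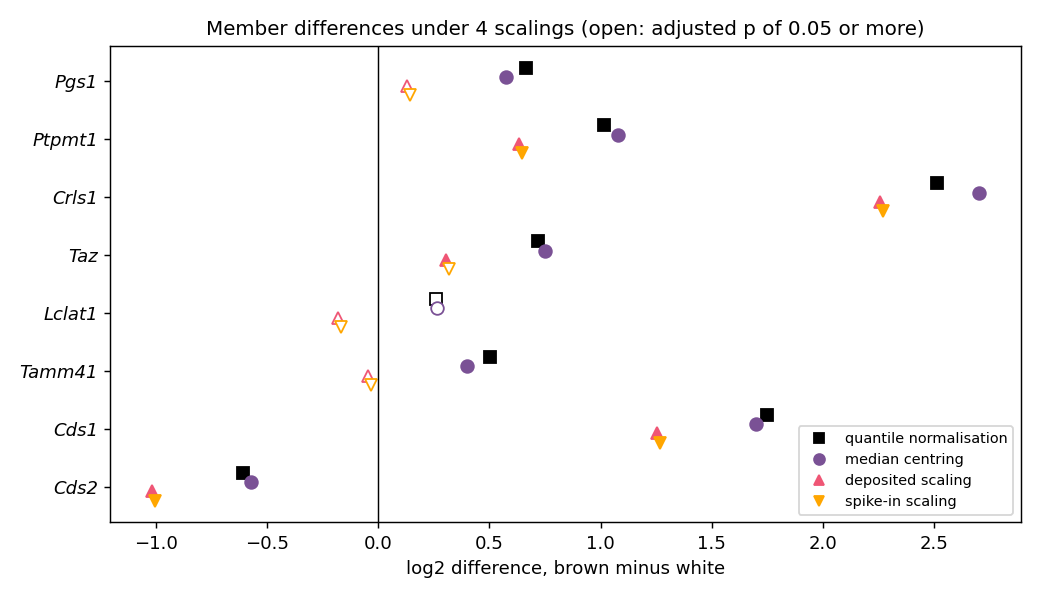
Log2 difference, brown minus white (horizontal axis), of the 8 genes under 4 scalings of the arrays. Filled symbols have an adjusted p below 0.05. Deposited and spike-in scaling shift the genes towards white, which turns the sign of Lclat1 and Tamm41, while Crls1 stays between 2.26 and 2.70.

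Mitochondrial genes as a group are higher in brown fat, so the 8 genes were also set against 15 reference genes of mitochondrial import, respiration and the citric acid cycle. All 15 were higher in brown (median 1.13, range 0.24 to 1.95), where 27.7% of all genes tested were. Among the 15 were the complex III subunits Uqcrc2 (1.95) and Uqcrc1 (1.80), the chaperone Hspa9 (1.62) and the import pore Tomm40 (1.55). The mean log2 signal of the 15 averaged 12.21 ± 0.01 over the brown arrays and 11.06 ± 0.04 over the white ones (SD, n = 3), a difference of 1.16. Differences from that mean were taken within each array, and were repeated on the deposited signals, where any factor for a whole array cancels. Relative to that mean, Crls1 was 1.35 higher in brown on the log2 scale (-0.83 ± 0.10 against -2.18 ± 0.16), with no overlap, and 1.15 higher on the deposited signals. Cds1 was 0.59 higher, with overlapping arrays, but 0.15 on the deposited signals and -0.21 with 64 units added. The remaining 6 genes were lower in brown relative to the reference mean. Cds2 was -1.76 relative to it, Lclat1 -0.90, Tamm41 -0.66, Pgs1 -0.49 and Taz -0.44, each without overlap between tissues. On the deposited signals these were -2.12, -1.28, -1.15, -0.98 and -0.80. Ptpmt1 stood at -0.14, with overlapping arrays, but at -0.47 without overlap on the deposited signals. Only 10.7% of the 10264 genes tested had a larger difference towards brown than Ptpmt1, and the median over all genes was -0.043. Most genes on the array therefore also lie below the reference, and this is no trait of these 6. The share of all genes without overlap relative to the reference was not computed. The values for Cds2 and Pgs1 are those of the brightest probe set, with the disagreements given above. An exact permutation test of 3 arrays against 3 cannot give a p below 0.1, and no other test of these within-array values was run. Crls1 thus also had a larger tissue difference than its neighbours in the route, by 1.49 against Ptpmt1 and 1.79 against Taz, or 1.62 and 1.95 on the deposited signals, and no arrays overlapped in these comparisons.

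Phosphatidic acid reaches the inner membrane through lipid transfer proteins after it is made by acyltransferases. Of 9 genes listed for substrate supply and for lipid transfer in general, 8 were tested, with 3 calls for brown, 1 for white and 4 for neither (median 0.26). These are 37.5% for brown and 12.5% for white, against 27.7% and 32.2% of all genes tested. Prelid3b, a lipid transfer protein of the intermembrane space, had 998 ± 63.9 in brown against 150 ± 13.7 in white (SD, n = 3; log2 difference 2.74, limma adjusted p = 1.69e-08). Which lipid Prelid3b carries was not measured here, and its value says nothing on phosphatidic acid supply. Its relative Prelid1, which carries phosphatidic acid for cardiolipin synthesis, was higher in white (823 ± 45.4 against 1170 ± 110; -0.51, limma adjusted p = 0.00072), with 3 of its 4 tested probe sets called that way and 1 not called. With the deposited scaling the difference was -0.84. All 4 of these Prelid1 probe sets are of kinds that can read related transcripts. The acyltransferases Gpat4 (1.41) and Agpat5 (0.58) were higher in brown. The call of Agpat5 was lost with the deposited scaling (0.075, adjusted p = 0.53) and with spike-in scaling (0.088, adjusted p = 0.676), and 1 of the 2 tested Gpat4 probe sets was not called.

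Of 5 genes that remove or restore acyl chains, 4 were tested and all 4 were higher in brown (median 1.78), where 27.7% of all genes tested were. Hadha and Hadhb form the trifunctional protein of fatty acid oxidation, and the first is related to an enzyme that acylates monolyso-cardiolipin. Hadha had 6170 ± 126 against 1028 ± 65.2 (2.59, limma adjusted p = 1.06e-09) and Hadhb 9703 ± 562 against 1847 ± 93.0 (2.39). The calcium-independent phospholipases Pla2g6 (1.16) and Pnpla8 (0.52), which can cut cardiolipin, were higher in brown, but the second tested probe set of Pla2g6 was called higher in white (-0.49), and Pnpla8 lost its call with spike-in scaling (0.26, adjusted p = 0.0898).

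Among 8 genes listed for the movement, turnover and protein partners of cardiolipin, 5 were tested, with 4 calls for brown and 1 for white (median 1.29). These are 80% and 20%, against 27.7% and 32.2% of all genes tested. Pld6, a phospholipase of the outer membrane that hydrolyses cardiolipin, had 88.3 ± 6.54 in brown and was absent on all white arrays, at 22.2, 12.6 and 8.41. The fitted difference of 2.73 (limma adjusted p = 0.000149) has no firm size, since it was 0.96 with 64 signal units added (limma adjusted p = 7.78e-06). Without any 1 brown array it had too few present calls to be tested. Pld6 passed the detection filter only through the brown arrays, where it is higher. Its p-values and its place among the 4 calls for brown are therefore no separate support for that direction. The prohibitin Phb2 (1.34), the cardiolipin-binding Stoml2 (1.29) and the fusion GTPase Opa1 (0.86) were higher in brown, each in all of its tested probe sets. Their size differed between probe sets, from 0.72 to 2.22 for Phb2 and from 0.86 to 2.61 for Opa1. The scramblase Plscr3 was higher in white (186 ± 31.0 against 334 ± 30.3; -0.85, limma adjusted p = 0.000669). Dnajc19 and Phb had no probe set of that single name here.

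Other fates of phosphatidic acid and CDP-diacylglycerol, and other mitochondrial phospholipids, were covered by 8 genes, of which 7 were tested. Of these, 3 were called for brown, 2 for white and 2 for neither (median 0.070). The shares were 42.9% for brown and 28.6% for white, against 27.7% and 32.2% of all genes tested. Ptdss2, which makes phosphatidylserine, was higher in brown in all 5 of its tested probe sets (brightest 1.23, limma adjusted p = 1.12e-07), and so was the phosphatidylcholine carrier Stard7 (0.83). Pisd, the mitochondrial decarboxylase that makes phosphatidylethanolamine, was higher in brown at 0.36 but stood at -0.0051 with the deposited scaling (adjusted p = 0.967) and 0.0082 with spike-in scaling (adjusted p = 0.966). The only tested probe sets of Stard7 and Pisd are of kinds that can read related transcripts. The phosphatidate phosphatase Lpin1 (-0.45), which diverts phosphatidic acid to triglyceride, and Cdipt (-0.31), which uses CDP-diacylglycerol for phosphatidylinositol, were higher in white. Lpin1 lost its call with median centring (-0.063, adjusted p = 0.563). Cdipt stood at -0.80 with the deposited scaling (adjusted p = 8.56e-05). It lost its call with the replicate number as a block (adjusted p = 0.0553) and without brown replicate 3 (0.0765), white replicate 1 (0.0878) or white replicate 3 (0.0941).

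**Figure D4:**
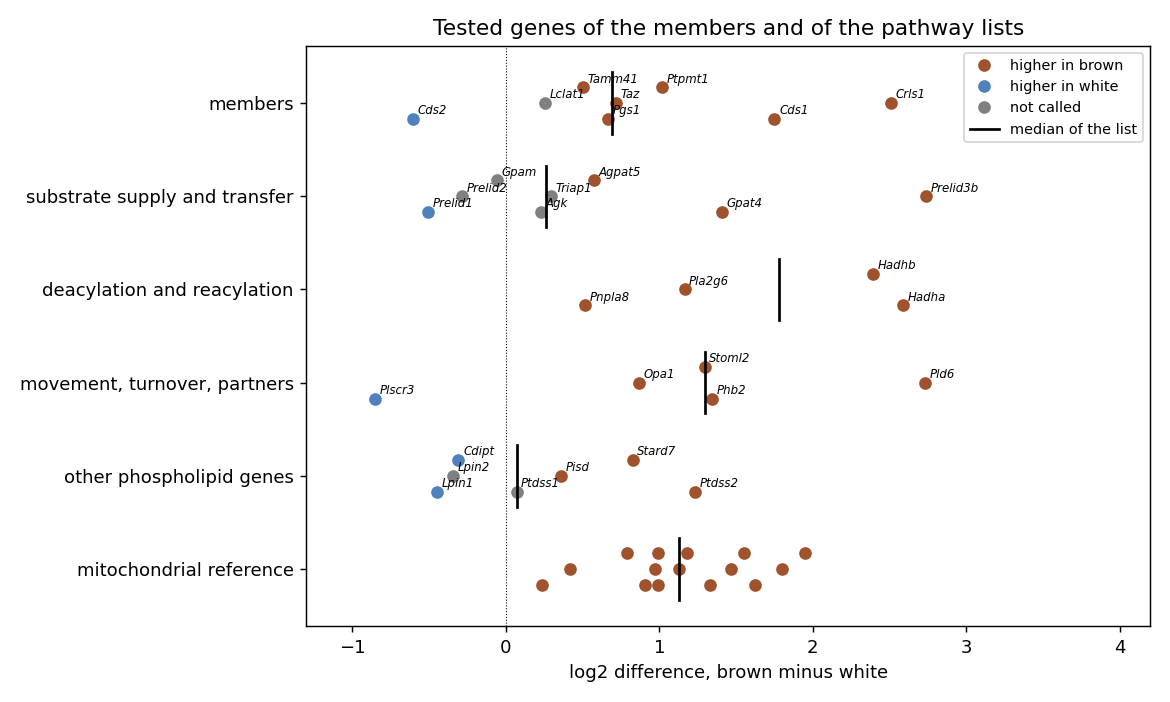
Log2 difference, brown minus white (horizontal axis), of each tested gene in the list of 8 and in 5 lists of related genes, 1 row of points per list, coloured by call, with the median as a vertical line. The value of Pld6 is a fitted one of no firm size, since it is absent on the white arrays. Crls1, Prelid3b, Hadha and Hadhb lie to the right of all 15 mitochondrial reference genes.

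The genes whose pattern over the 6 arrays was nearest to that of Crls1 were found by the root mean square distance of log2 signals after each gene was centred on its own mean. They were Slc25a33, a mitochondrial pyrimidine nucleotide carrier, at a distance of 0.0598, Chchd3, a subunit of the cristae junction complex, at 0.0773, Sdhd, a membrane subunit of succinate dehydrogenase, at 0.0793, Sdr39u1 at 0.0930 and Clic5, an intracellular chloride channel protein, at 0.0949. Their differences lay between 2.39 for Sdhd and 2.67 for Clic5. One of the 2 tested probe sets of Sdr39u1 was not called. The likeness is a description over 6 arrays that differ mainly by tissue.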

How the data were processed

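Per the file headers, the authors deposited for every probe set on an array its linear signal intensity, the call made from it (present, marginal, absent) and that call's p-value. Software and scaling were not given in the sources used here. Symbols came from the platform annotation (34945 probe sets with 1 symbol, 932 with several, 9160 with none, of 45037 after 64 controls were removed); only single symbols were named. The 1 signal of 0 was set to 0.1, log2 signals were quantile-normalised, and the 19819 probe sets present on at least 3 of 6 arrays entered limma 3.58.1 (R 4.3.3, eBayes with trend, Benjamini-Hochberg). The fit was tested on simulated data. Folds are ratios of geometric means. Where a probe set was absent on all arrays of a tissue, no fold is given, and any log2 difference shown is a fitted value of no firm size. The number of arrays limits the precision. Each p-value sets the tissue difference against the spread between these samples, moderated over all tested probe sets.

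The deposited series table of linear signal intensity runs opposite to the array files in tissue: its columns correlated at 0.83 to 0.89 with arrays of the other tissue and at 0.80 to 0.81 with arrays of the same one, all 6 columns matched best the same replicate number of the other tissue, and Ucp1 stood at -8.10 and Crls1 at -2.42 there. Its column medians were 64.3, 62.9 and 63.8 (named brown) and 56.7, 56.8 and 55.9 (named white), and its centring is unknown. Array files were used throughout, since Ucp1 and Lep run there in the known directions, which are therefore no independent evidence.

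Members and lists were chosen with earlier results of these data known. Named from each list were up to 4 called genes with the largest difference and every called gene against the list's majority. Same-numbered samples did not deviate together (correlations 0.02, -0.01 and -0.05), and the labels do not tie numbers to mice.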

Additional observations from a re-analysis of the deposited data

How the results depend on the processing

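With deposited and spike-in scaling, 2535 and 2305 probe sets were higher in brown and 10785 and 9879 in white, against 4885 and 5924 after quantile normalisation, and 3 of the 8 genes were higher in brown with spike-in scaling, or 4 as deposited. The supply genes then numbered 2 higher in white under either, and genes of other phospholipids 4 higher in white as deposited. Lclat1 turned to -0.18 and -0.17 (deposited, spike-in), Tamm41 to -0.048 and -0.034, the unselected Cds2 probe sets to -0.30 and -0.29 and to -0.40 and -0.38, and Pisd to -0.0051 as deposited. With median centring 1 of the other phospholipid genes was higher in white. Among probe sets present on all 6 arrays, 3944 were higher in white and Cds1 was not tested. Without the detection filter 2 genes of movement and turnover were higher in white, and without the trend 2 supply genes. With the mean of probe sets 0 members were higher in white, Pgs1 was -0.15 and Lclat1 was called (0.26). The within-array difference of Cds1 from the mitochondrial reference, an alternative chosen after seeing the data, turned to -0.21 with 64 units added. Without probe sets ending in _x_at or _s_at, 0 members and 0 supply genes were higher in white, 1 other phospholipid gene was higher in brown, and Cds2 was 0.24. With the replicate block, 1 other phospholipid gene was higher in white, the Pgs1 probe set absent in brown lost its call, and no member's call changed.

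Leaving out 1 array at a time gave 5 to 7 members higher in brown and 1 to 2 in white, 1 to 2 other phospholipid genes in white, Pgs1 between -0.67 and 0.73, and the Cds2 probe set at 0.15 between -0.049 and 0.29. Crls1 ranged from 2.42 to 2.61 and Ptpmt1 from 0.94 to 1.08. The filter kept asking for 3 present calls, so fewer probe sets were tested. Signal over background limits Cds1, Pgs1 and Tamm41.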
